A study of Mus musculus with 20 samples.

Results

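The Hox genes are homeobox genes that lie in 4 clusters named HoxA, HoxB, HoxC and HoxD, and 38 of them, listed by name, were followed here among the 51826 genes of the count table. They comprised 10 genes of HoxA, 10 of HoxB, 9 of HoxC and 9 of HoxD, and each symbol was matched to its Ensembl gene identifier. On mm10 the HoxA members span 52162417 to 52260880 of chromosome 6 on the minus strand. The HoxB members span 96194316 to 96368256 of chromosome 11, the HoxC members 102921103 to 103036852 of chromosome 15 and the HoxD members 74668310 to 74765142 of chromosome 2, all on the plus strand.

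Each Hox gene encodes a transcription factor that binds DNA through its homeodomain, usually together with a partner of the Pbx or Meis families. Along a cluster, genes with low paralogue numbers are active towards the head and genes with high numbers towards the tail and the ends of the limbs, and genes with the same number in different clusters are copies that share much of their role. Connective tissue cells of the adult keep a part of this positional pattern, so that fibroblasts of lung, trunk and limb differ in the Hox genes they express. The levels in 14 lung metastases and 6 primary tumours are therefore given by cluster and by paralogue number.

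Total RNA of mouse tumour tissue was measured in 14 lung metastases and 6 primary tumours of a sarcoma study, numbered 1 to 6, and each metastasis is matched by its title with a primary tumour. Together, a primary tumour and the metastases matched with it form a set, and metastasis 2-3 is the metastasis numbered 3 of set 2. Sets 1 and 2 had 4 metastases each, sets 3 and 6 had 2 each, and sets 4 and 5 had 1 each, that of set 5 without a number (5-x). Every library, metastasis or primary tumour, carries the same genotype label, a mixed background, and the labels used here name no allele, driver of recombination, sex, age, tumour site or time of collection. Whether the metastases of a set grew in different animals is not said either, and the p-values then cover only the variation among these libraries, which may be technical.

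Total counts ran from 20603620 to 36824370 per library, and the 38 Hox genes together took a median of 140.3 CPM, the usual unit of counts scaled to a common library total, in metastases and 147.6 CPM in primary tumours. Metastases as a group carried more lung RNA: 11 of 12 lung epithelium markers were higher in them by edgeR, with a median log2 difference of 6.79. The mean log2 CPM of these markers ran from 0.48 to 8.15 in metastases and from -2.87 to 1.71 in primary tumours. Metastases 2-4 (0.48) and 2-3 (1.27) lay below primary tumour 1 (1.71). Skeletal muscle markers were lower in metastases for 8 of 11, their mean log2 CPM running from -0.61 to 5.94 in metastases and from -2.25 to 8.57 in primary tumours, and primary tumours 4 and 6 were the 2 with little muscle RNA (-1.04 and -2.25). Fibroblast and mesenchyme markers were high in both groups, at 5.79 to 7.15 in metastases and 3.93 to 8.26 in primary tumours. A group of 3 libraries stood apart in how their levels depended on the GC content of a gene: metastases 3-2 and 4-1 and primary tumour 4 had slopes of -1.27, -1.86 and -2.43 log2 CPM per 10 percentage points of GC over 11327 genes, against -0.26 to 0.52 in all others. In bulk tissue, fewer cells of a type and less RNA per cell cannot be told apart.

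Levels of different Hox genes were compared as CPM per kilobase of exon. In metastases Hoxc10, a gene of the lumbar and hindlimb region, was the highest at 8.15 ± 1.80, followed by Hoxa11, which patterns the forearm and lower leg, at 7.89 ± 2.86, and Hoxc9 at 7.58 ± 3.88 (mean ± SD, n = 14). In primary tumours the order began with Hoxa10 at 9.05 ± 4.93, Hoxc10 at 8.13 ± 0.99 and Hoxd8 at 8.06 ± 4.96 (n = 6). The range of Hoxc10 was 5.03 to 11.7 in metastases and enclosed its range of 6.51 to 9.45 in primary tumours. Neighbours at the top of each order lay within each other's spread: Hoxc10, Hoxa11 and Hoxc9 could not be ranked in metastases, nor Hoxa10, Hoxc10 and Hoxd8 in primary tumours.

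Of the 38 ranks, 4 differed by 10 places or more between the groups. Hoxd8 ranked 16 in metastases and 3 in primary tumours, Hoxd9 ranked 25 and Hoxd4 30 in metastases against 14 and 19 in primary tumours, and Hoxa13, which patterns hands, feet and the genital tubercle, ranked 10 in metastases and 20 in primary tumours. At the low end of both orders, Hoxb13, Hoxd12, Hoxd13 and Hoxb1 had totals of 1, 2, 5 and 7 counts over all 20 libraries. Hoxd11 had 12 counts, Hoxd1 26, Hoxd3 35, Hoxb8 59, Hoxd10 91 and Hoxb9 136. These 10 genes did not pass the filter on low counts and were not tested, so their values are described only.

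**Figure D1:**
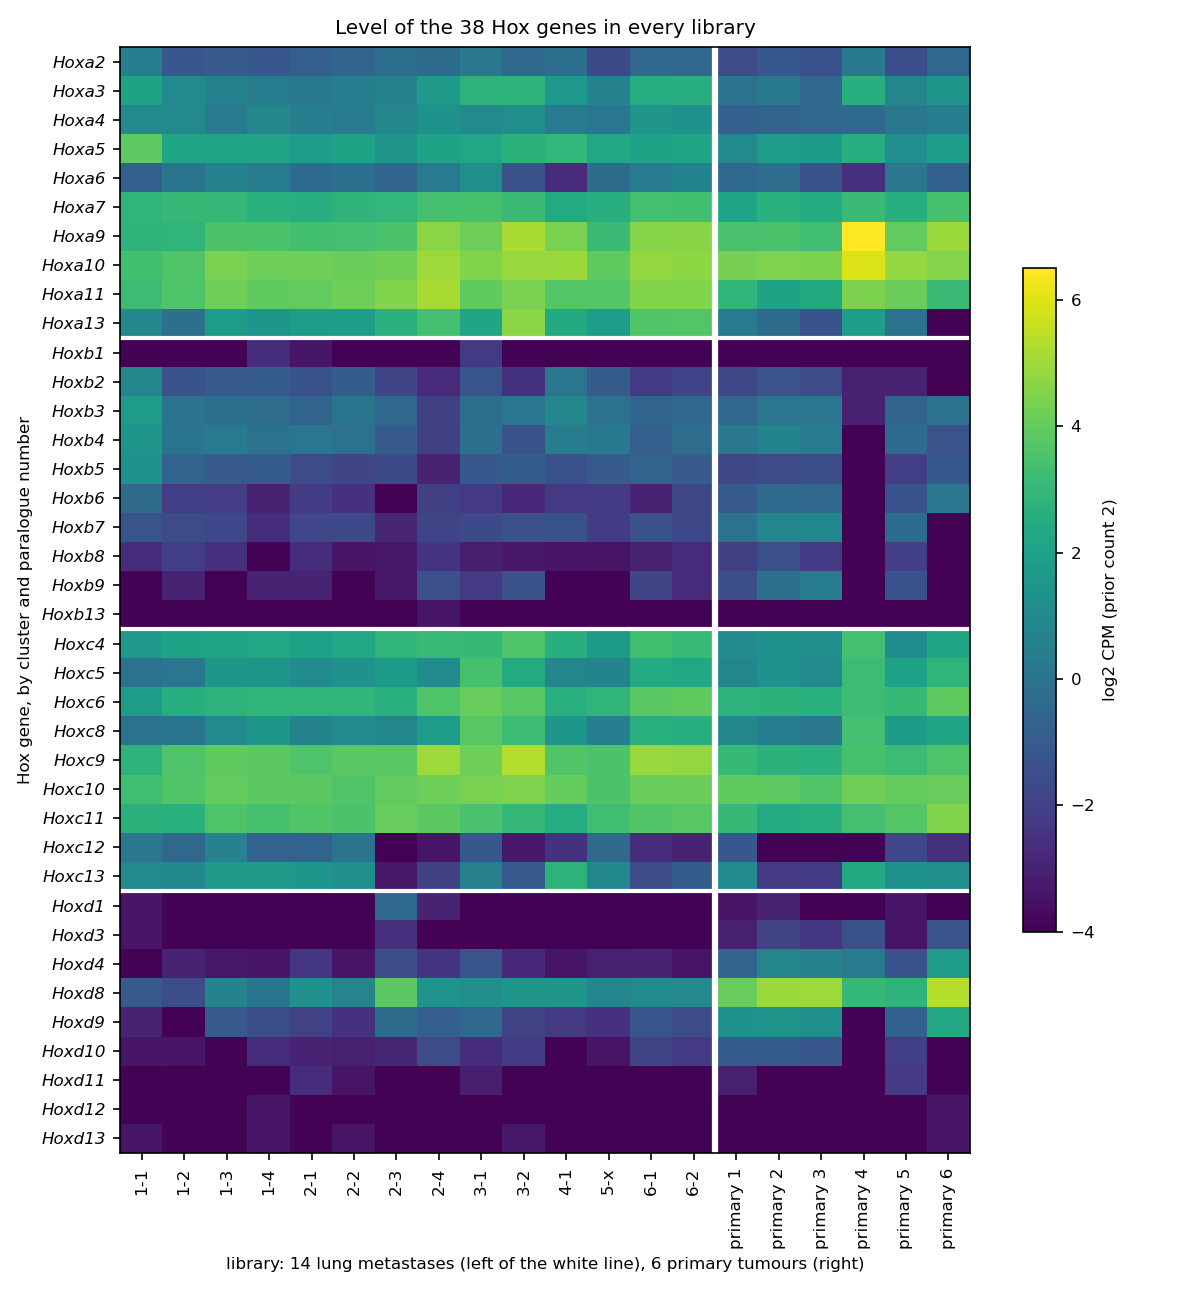
Heat map of log2 CPM (colour scale, prior count 2) of the 38 Hox genes, in rows by cluster and paralogue number, in the 14 lung metastases left of the vertical white line and the 6 primary tumours right of it. HoxA and HoxC rows are bright in both groups, Hoxd8 is bright in primary tumours and, among metastases, in 2-3, and most HoxB rows are dark in primary tumour 4.

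Most of the Hox RNA of these tumours came from HoxA and HoxC. Summed over a cluster, CPM per kilobase ran from 18.9 to 44.4 for HoxA in metastases and from 15.3 to 53.9 in primary tumours, and from 16.1 to 47.2 for HoxC in metastases and from 16.9 to 37.97 in primary tumours, so both clusters overlapped fully between the groups. HoxB gave little, at 0.55 to 3.78 in metastases and 0.028 to 2.97 in primary tumours. HoxD was where the groups parted, with a sum of 0.15 to 6.14 and a median of 0.96 in metastases, against 3.08 to 18.1 and a median of 10.3 in primary tumours.

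As a share of the summed Hox level of a library, HoxD made up 1.96 ± 2.31% in metastases and 16.8 ± 10.3% in primary tumours (SD, n = 14 and 6). The 13 metastases other than 2-3 had 0.353% to 2.18%, below every primary tumour, and metastasis 2-3 had 9.79%, above primary tumours 4 (3.58%) and 5 (5.49%). The shares of HoxA and HoxC, which add up with HoxD and HoxB to the whole, were 46.2 ± 3.4% and 49.5 ± 4.5% in metastases and 38.5 ± 11.0% and 41.4 ± 5.8% in primary tumours. By paralogue number, genes 1 to 4 made up 8.61 ± 1.95% in metastases and 5.86 ± 0.98% in primary tumours, genes 5 to 8 made up 23.6 ± 4.6% in metastases and 33.4 ± 9.5% in primary tumours, and genes 9 to 13 made up 67.8 ± 6.1% in metastases and 60.7 ± 9.7% in primary tumours. The total over all 38 genes was 41.2 to 93.8 CPM per kilobase in metastases and 46.7 to 92.8 in primary tumours.

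**Figure D2:**
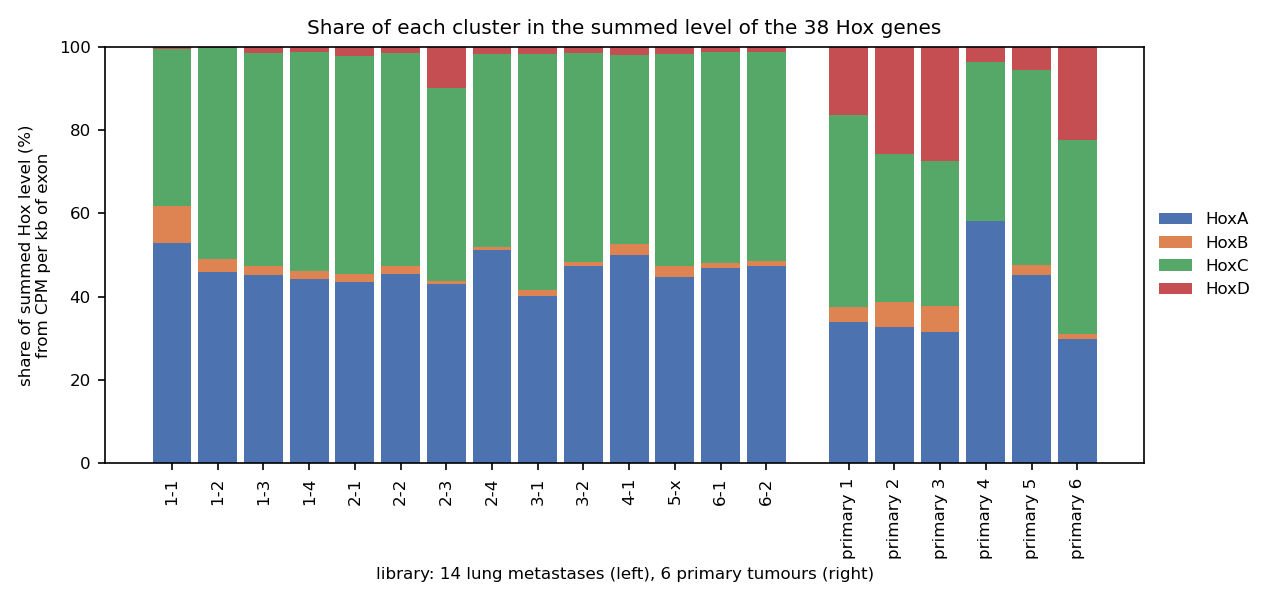
Stacked bars give, for each library, the percent of the summed level of the 38 Hox genes (CPM per kilobase of exon) that came from each cluster, with 14 lung metastases on the left and 6 primary tumours on the right. The HoxD part is under 2.2% in 13 metastases and 9.79% in metastasis 2-3, and lies between 3.58% and 27.5% in primary tumours.

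The comparison of metastases with primary tumours used edgeR with the set as a block, over 18452 genes. Of the 28 Hox genes tested, 2 rose in metastases (Hoxa4 and Hoxc9) and 3 fell (Hoxd4, Hoxd8 and Hoxd9). Over all genes tested, 7.34% rose and 6.44% fell at an adjusted p under 0.05, while 7.14% of the tested Hox genes rose and 10.7% fell, so neither count stood far from that of all genes, and both rest on very few genes. At an unadjusted p under 0.05, 6 Hox genes (21.4%) were higher and 5 (17.9%) lower, against 14.7% and 14.1% of all genes. The median log2 difference of metastases over primary tumours was 0.25 for the 28 Hox genes and -0.00032 for all genes tested. By cluster the median was -3.31 for the 3 tested HoxD genes, 0.67 for 10 HoxA genes, 0.20 for 6 HoxB genes and 0.20 for 9 HoxC genes.

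**Figure D3:**
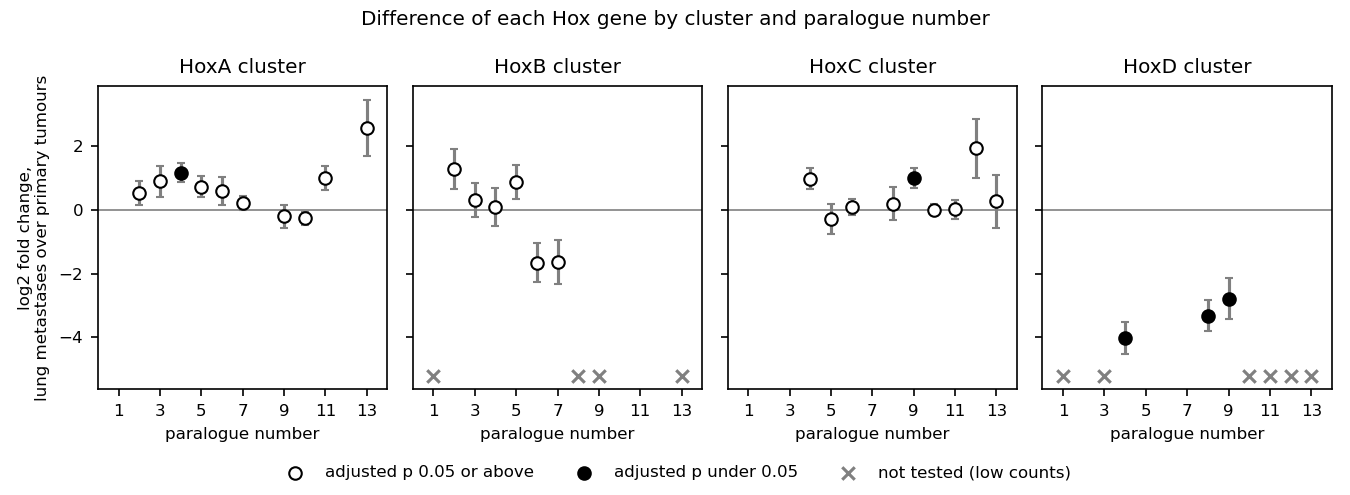
Log2 fold change of lung metastases over primary tumours (points, with the standard error as bars) against paralogue number, 1 panel per cluster. Filled points have an adjusted p under 0.05 by edgeR, open points do not, and crosses at the bottom mark the 10 genes that were not tested. The 3 tested HoxD genes lie between -4.02 and -2.78, and in HoxB the points of Hoxb6 and Hoxb7 lie below 0 while those of Hoxb2 to Hoxb5 lie above it.

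The 3 HoxD genes that fell are neighbours on chromosome 2 in the order Hoxd9, Hoxd8, Hoxd4. Hoxd8 was the most abundant of them. Its promoter window, from 250 bases before to 50 after the transcription start in RefSeq on GRCm38.p6, is shown with those of Hoxd9 and Hoxd4, because these are the only HoxD members past the threshold. Capitals mark matches, on either strand, to 5 short motifs: TGATTNAT for Pbx with a Hox protein, TGACAG for Meis, AGGTCA for a retinoid receptor half-site, TTTATNG for Cdx, and TATAAA for the TATA box. The Hoxd9 window is chr2:74697513-74697812, the Hoxd8 window chr2:74704365-74704664 and the Hoxd4 window chr2:74721728-74722027, each on the plus strand.
Hoxd9: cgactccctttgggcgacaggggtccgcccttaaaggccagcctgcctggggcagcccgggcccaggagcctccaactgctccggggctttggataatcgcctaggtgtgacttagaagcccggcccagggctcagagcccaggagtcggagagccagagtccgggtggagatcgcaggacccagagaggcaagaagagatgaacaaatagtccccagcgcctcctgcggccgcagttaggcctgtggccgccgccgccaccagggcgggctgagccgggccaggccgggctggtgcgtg
Hoxd8: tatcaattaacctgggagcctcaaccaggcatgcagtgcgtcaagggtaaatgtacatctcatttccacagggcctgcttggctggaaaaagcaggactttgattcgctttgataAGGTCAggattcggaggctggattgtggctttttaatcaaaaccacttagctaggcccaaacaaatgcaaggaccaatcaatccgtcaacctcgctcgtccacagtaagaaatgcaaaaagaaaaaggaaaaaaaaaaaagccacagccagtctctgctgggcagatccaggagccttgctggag
Hoxd4: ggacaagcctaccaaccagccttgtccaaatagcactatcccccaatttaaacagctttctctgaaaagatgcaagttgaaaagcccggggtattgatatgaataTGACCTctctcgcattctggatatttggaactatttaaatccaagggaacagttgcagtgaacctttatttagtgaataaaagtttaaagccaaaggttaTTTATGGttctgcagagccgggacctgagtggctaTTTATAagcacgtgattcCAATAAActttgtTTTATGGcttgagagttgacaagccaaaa

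The windows differ in composition. That of Hoxd9 holds 20 CpG dinucleotides and none of the motifs, that of Hoxd8 holds 6 CpG and 1 match to AGGTCA, and that of Hoxd4 holds 4 CpG, 1 match to AGGTCA, 3 to TTTATNG and 1 to TATAAA. RefSeq windows were found for 22 of the 38 members, 24 windows in all, with a median of 14.5 CpG, against a median of 7 over all 32851 windows. AGGTCA was in 7 of the 24 windows and in 16.3% of all windows, TTTATNG in 2 (Hoxd4 and Hoxb8) and in 10.9%, and TATAAA in 4 and in 13.6%. TGATTNAT was in 2 and in 3.22% of all, and TGACAG in 2 and in 19.2%. A match is a description of letters and marks no site of binding.

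Hoxd8, a gene of the middle of the HoxD cluster (74704615 to 74707933), had a lowest, median and highest level of 0.298, 1.91 and 14.4 CPM in metastases, against 7.04, 23.2 and 39.9 CPM in primary tumours. The 13 metastases other than 2-3 had at most 2.90 CPM, under every primary tumour, and only metastasis 2-3 overlapped, lying between primary tumours 4 (7.81 CPM) and 1 (16.5 CPM). Hoxd8 was lower in metastases in 6 of 6 sets, with a log2 fold change of -3.31 ± 0.48 (SE) and an adjusted p of 0.00111 by edgeR.

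Hoxd9 lies just 5′ of Hoxd8 (74697727 to 74700208) and, with its paralogues, patterns the lumbar and sacral region and the limb. It had 0, 0.233 and 0.755 CPM (lowest, median, highest) in metastases, against 0, 2.39 and 5.02 CPM in primary tumours. Primary tumour 4 had no count of Hoxd9 and primary tumour 5 had 0.530 CPM, inside the range of metastases, whereas primary tumours 1, 2, 3 and 6 had 2.31 to 5.02 CPM and lay above all metastases. The log2 fold change was -2.78 ± 0.64 with an adjusted p of 0.0106 by edgeR, and the level was lower in metastases in 5 of 6 sets. The call was lost without set 1 or without set 2 (adjusted p 0.0584 and 0.0588) and when the metastases of each set were summed (0.177) or 1 metastasis per set was used (0.185).

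Hoxd4, which helps to pattern the neck vertebrae, had 0, 0.0576 and 0.348 CPM in metastases, against 0.324, 1.34 and 3.40 CPM in primary tumours. The groups overlapped only by metastasis 3-1 (0.348 CPM) and primary tumour 5 (0.324 CPM), and the level was lower in metastases in 6 of 6 sets. Its log2 fold change was the largest fall of a member tested, -4.02 ± 0.50, with an adjusted p of 0.000384 by edgeR. The Hoxd4 model shares 52.3% of its exon bases on the same strand with Hoxd3 and a predicted transcript, so how reads were divided among them is uncertain.

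Hoxd3, a gene of the first neck vertebra that shares 62.3% of its exon bases with Hoxd4, was below the filter with 4 counts in metastases and 31 in primary tumours. It was detected in 2 of 14 metastases, at 0.0322 CPM in 1-1 and 0.108 CPM in 2-3, and in each primary tumour, at 0.0295 to 0.337 CPM. When no filter on low counts was used, Hoxd3 passed the threshold as well, with a log2 fold change of -3.89 and an adjusted p of 0.00512 by edgeR.

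The outer genes of HoxD were close to silent in both groups. Hoxd10, a gene of hindlimb motor neurons, had 0 to 0.271 CPM in metastases and 0 to 0.454 CPM in primary tumours, with no count in primary tumours 4 and 6. Hoxd11, Hoxd12 and Hoxd13, the genes of forearm and digits, had at most 0.0992, 0.0327 and 0.0392 CPM in metastases and at most 0.147, 0.0337 and 0.0337 CPM in primary tumours. Hoxd1, the 3′ end of the cluster, reached 0.683 CPM in metastasis 2-3 and at most 0.0605 CPM in every other library.

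**Figure D4:**
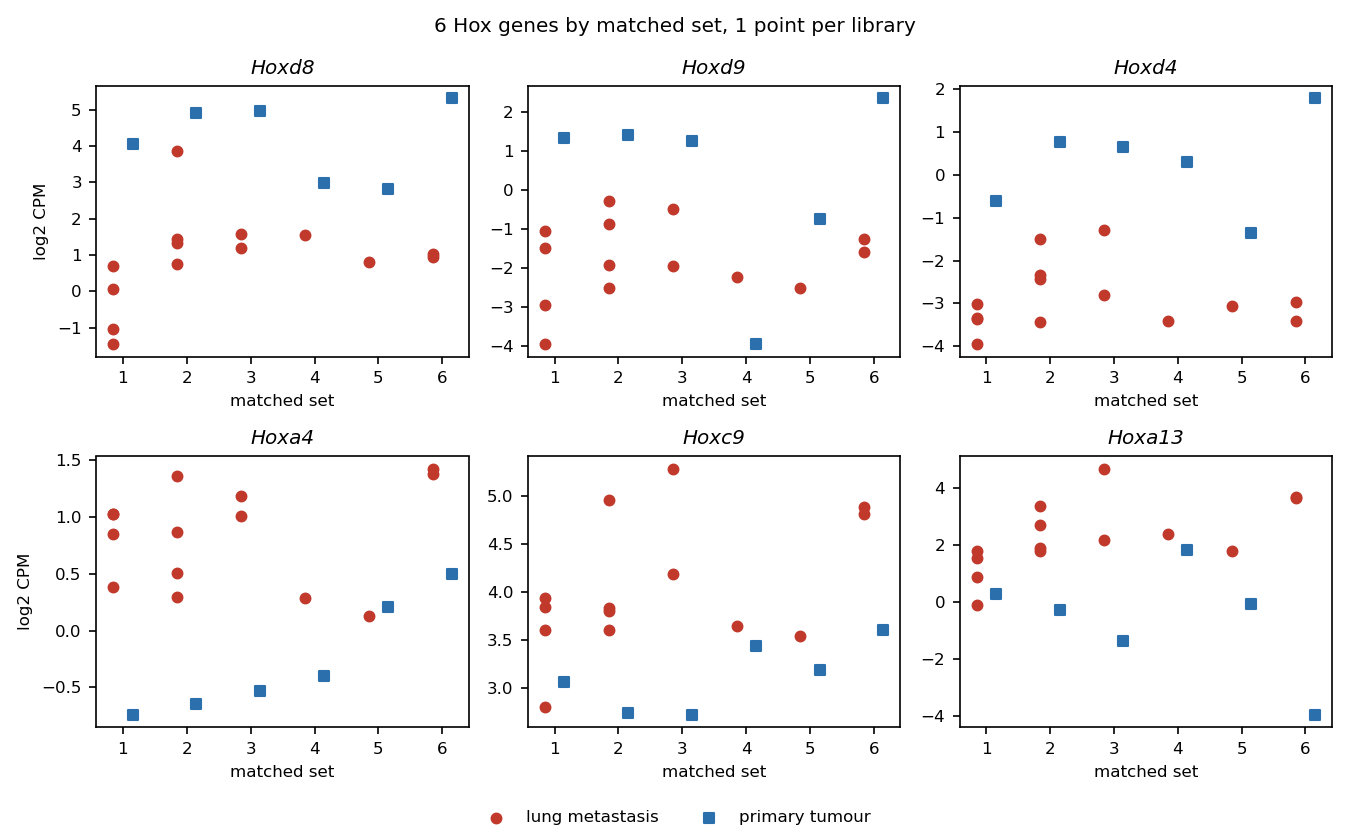
Log2 CPM of 6 Hox genes by matched set, with lung metastases (red circles) left of the primary tumour (blue squares) of each set, 1 point per library. Hoxd8 and Hoxd4 lie below the primary tumour in each set, Hoxd9 in all but set 4, and the metastases of Hoxa4, Hoxc9 and Hoxa13 lie mostly above their primary tumour.

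Muscle and lung RNA differed between the groups, and whether their levels follow those of the HoxD genes across libraries was not tested. Primary tumour 6 had the highest Hoxd8 (39.9 CPM) and Hoxd4 (3.40 CPM) with summed muscle markers of 2.59 CPM, the lowest of all libraries, while primary tumour 5 had the lowest Hoxd8 (7.04 CPM) with the highest muscle sum (9075 CPM). Metastasis 2-3, the one metastasis with high Hoxd8, had the highest muscle sum of the metastases (3528 CPM) and the lowest lung epithelium sum (499 CPM), but metastasis 3-1, second in muscle at 1373 CPM, had a Hoxd8 level of 2.24 CPM. Metastasis 2-4 had little lung RNA by mean log2 CPM of the markers (0.48) and a Hoxd8 level of 2.65 CPM.

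With the mean log2 CPM of the muscle markers as a further term, Hoxd8 (-3.05, adjusted p 0.00593) and Hoxd4 (-4.27, 0.000881) stayed past the threshold by edgeR and Hoxd9 did not (-2.45, 0.0628). With the lung markers instead, Hoxd4 was at -3.43 (adjusted p 0.0487), Hoxd8 at -2.56 (0.0901) and Hoxd9 at -2.21 (0.252), all still below 0. Every metastasis had a higher mean log2 CPM of the lung markers than its own primary tumour. The fit with this term therefore cannot cleanly separate lung RNA from metastasis. In sets 1, 2, 3 and 5 every metastasis had a lower mean log2 CPM of the muscle markers than its own primary tumour. Sets 4 and 6 went the other way. The fit with the muscle term therefore cannot cleanly separate muscle RNA from metastasis either. Over the 12 lung epithelium markers the summed level was 499 to 13934 CPM in metastases and 1.12 to 444 CPM in primary tumours. Nkx2-1 and Lamp3 were at 0 in at least 1 metastasis and 5 of the 12 (Sftpc, Sftpb, Sftpd, Nkx2-1 and Foxj1) at 0 in at least 1 primary tumour. Where these ranges came closest, the sum was mostly Krt8 and Krt18. They were at 61.5 and 403 CPM in metastasis 2-3 and at 151 and 262 CPM in primary tumour 1. In metastasis 2-4, with a sum of 1136 CPM, they were at 432 and 687 CPM. Sftpc was at 2.08 CPM in metastasis 2-3 and 0.361 CPM in 2-4. Over the 11 muscle markers the summed level was 12.1 to 3528 CPM in metastases and 2.59 to 9075 CPM in primary tumours. Pvalb was at 0 in at least 1 metastasis, and Ckm and Pvalb were at 0 in at least 1 primary tumour. Over the 8 fibroblast and mesenchyme markers it was 1414 to 2857 CPM in metastases and 3124 to 7814 CPM in primary tumours, without overlap. None was at 0 in a metastasis and Thy1 was at 0 in at least 1 primary tumour. Col1a2 made up much of the sum, at 1901 CPM in primary tumour 4 and 5188 CPM in primary tumour 6. By mean log2 CPM of these markers the groups overlapped. Primary tumour 4 was then the lowest of all libraries (3.93), and primary tumour 6 (6.05) lay within the metastases. The part of fibroblast RNA in the HoxD differences was not tested.

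**Figure D5:**
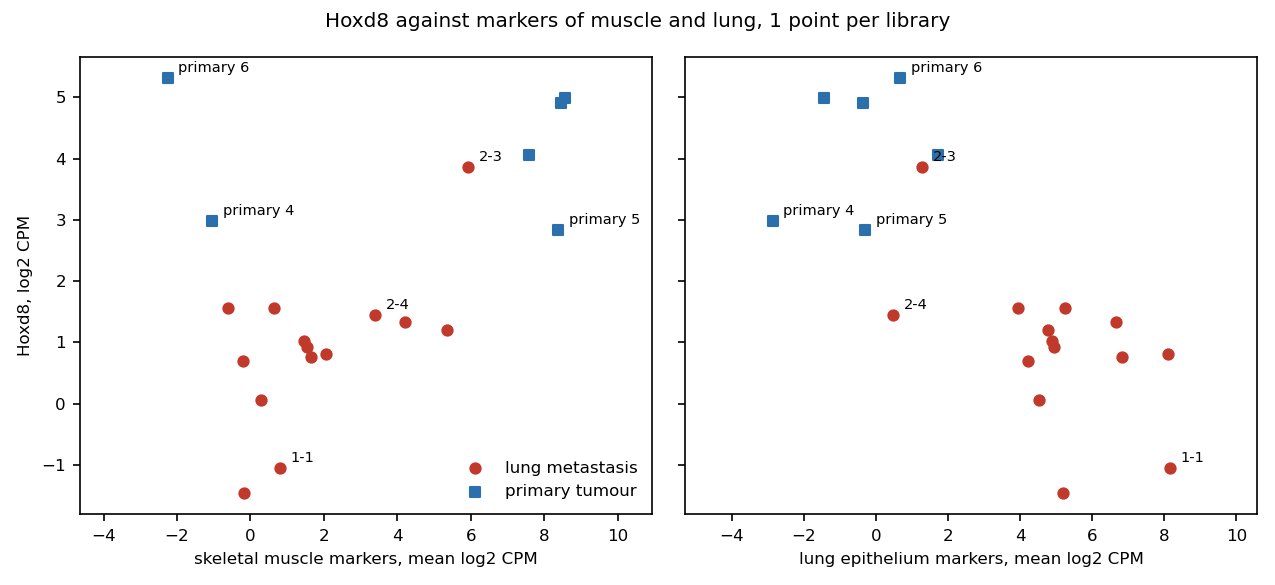
Log2 CPM of Hoxd8 against the mean log2 CPM of 11 skeletal muscle markers (left) and 12 lung epithelium markers (right), 1 point per library, lung metastases as red circles and primary tumours as blue squares. Primary tumours 4 and 6 have little muscle RNA (-1.04 and -2.25) and Hoxd8 levels above those of 13 metastases, and metastasis 2-3 (5.94 for muscle, 1.27 for lung) lies among the primary tumours.

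In HoxA, 8 of 10 tested genes had a log2 fold change above 0, and Hoxa4 alone passed the threshold. Hoxa4, a gene of the neck region (52189671 to 52191753), had 1.03, 1.85 and 2.61 CPM (lowest, median, highest) in metastases, against 0.535, 0.661 and 1.35 CPM in primary tumours. Primary tumours 1 to 4 lay below all metastases, and primary tumours 5 (1.09 CPM) and 6 (1.35 CPM) lay within their range. The rise was 2.25-fold, a log2 fold change of 1.17 ± 0.31 with an adjusted p of 0.0199 by edgeR, and it was seen in 5 of 6 sets, the exception being set 5. The call was lost without set 1, 2 or 6 (adjusted p 0.127, 0.0919 and 0.0567), with summed metastases (0.181), with 1 metastasis per set (0.185) and with no filter on low counts (0.0928).

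Hoxa13 had the largest difference above 0 of the 28, without passing the threshold. It had 0.866, 4.06 and 25.3 CPM in metastases and 0, 0.820 and 3.48 CPM in primary tumours, was higher in 6 of 6 sets and overlapped between the groups, since primary tumour 4 was above 6 metastases. Its log2 fold change was 2.58 ± 0.88 with an adjusted p of 0.0616 by edgeR. The level was 0 in primary tumour 6, at 12.4 and 12.8 CPM in its metastases, and highest in metastasis 3-2 (25.3 CPM), one of the libraries with a steep GC slope. Without those 3 libraries the difference was 2.67 and the adjusted p 0.0432, and without set 6 they were 2.07 and 0.0947.

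Hoxa11 had 9.19, 16.8 and 35.0 CPM in metastases and 4.11, 8.06 and 21.2 CPM in primary tumours, a log2 fold change of 1.00 ± 0.38 with an adjusted p of 0.0908. It overlapped through primary tumours 4 and 5 (21.2 and 17.5 CPM), and 35.0% of its exon bases lie opposite the antisense gene Hoxa11os. Hoxa5, which is needed for normal growth of the trachea and lung in the mouse, had 2.73, 4.53 and 14.7 CPM in metastases and 1.92, 3.25 and 5.83 CPM in primary tumours. It was higher in 6 of 6 sets with a log2 fold change of 0.73 ± 0.33, an adjusted p of 0.153, and with the lung markers as a term the difference was 0.11 (adjusted p 0.929). The highest Hoxa5 level was that of metastasis 1-1, which also had the highest sum over the lung epithelium markers (13934 CPM). Metastasis 5-x, with the next highest sum (11621 CPM), had a Hoxa5 level of 4.71 CPM.

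The other HoxA genes gave values on both sides of 0. Hoxa2 and Hoxa3, genes of the hindbrain and the pharyngeal arches, had log2 fold changes of 0.52 ± 0.37 and 0.90 ± 0.48, Hoxa6 0.60 ± 0.44 and Hoxa7 0.22 ± 0.23. Hoxa9, known for its part in blood stem cells and leukaemia, was at -0.20 ± 0.36 and Hoxa10, a gene of the uterus and the thigh, at -0.27 ± 0.22, with adjusted p from 0.235 to 0.762 for these 6 genes by edgeR. Hoxa9 and Hoxa10 were highest of all libraries in primary tumour 4 (89.0 and 61.9 CPM), against 9.58 to 29.9 and 20.0 to 28.9 CPM in the other primary tumours. Hoxa6, with 57.3% GC among the GC-rich members, was lowest in metastasis 4-1 (0.0890 CPM) and primary tumour 4 (0.107 CPM), both of steep GC slope. Other GC-rich members went both ways in primary tumour 4. Hoxc12 and Hoxd9 had no count there, while Hoxa4 (0.696 CPM) and Hoxd3 (0.321 CPM) were not at their lowest. The part of GC content in these levels was not tested.

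In HoxC, Hoxc9 rose and its neighbours did not pass the threshold. Hoxc9, a gene of the thorax (102976439 to 102985099), had 6.87, 14.2 and 38.8 CPM in metastases, against 6.504, 8.62 and 12.1 CPM in primary tumours. Metastasis 1-1 (6.87 CPM) was the one metastasis under the median of primary tumours, and the groups overlapped. Hoxc9 was higher in 6 of 6 sets, 2.01-fold or 1.01 ± 0.31 on the log2 scale with an adjusted p of 0.0402 by edgeR. The call was lost without set 1, 2, 3 or 6, with an adjusted p of 0.0702 to 0.131. It was also lost with summed metastases (0.143), with 1 metastasis per set (0.254), with the muscle markers as a term (0.126) and with no filter (0.0640).

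Hoxc4, at the 3′ end of the cluster, had 2.93, 5.54 and 12.3 CPM in metastases and 2.00, 2.35 and 10.2 CPM in primary tumours, a log2 fold change of 0.98 ± 0.32 with an adjusted p of 0.0537. Primary tumour 4 (10.2 CPM) was above all metastases but 3-2, and the other primary tumours had at most 4.58 CPM. Without primary tumour 4 and metastases 4-1 and 3-2 Hoxc4 rose by 1.17 on the log2 scale with an adjusted p of 0.0100. Of the other genes before Hoxc12, Hoxc5, Hoxc6 and Hoxc8 of the thorax were at -0.28 ± 0.47, 0.10 ± 0.25 and 0.20 ± 0.52, and Hoxc10 and Hoxc11 of the lumbar region at 0.010 ± 0.174 and 0.021 ± 0.290.

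Hoxc12 and Hoxc13 end the cluster, and Hoxc13 is known for its role in hair and nails. Hoxc12 had 0 to 1.51 CPM in metastases and 0 to 0.401 CPM in primary tumours, a log2 fold change of 1.94 ± 0.93 with an adjusted p of 0.181, and Hoxc13 was at 0.28 ± 0.84 with 0.865. Both divided the metastases of set 2, of which 2-1 and 2-2 were the closest pair of libraries over all genes. Metastases 2-1 and 2-2 had 0.595 and 0.967 CPM of Hoxc12, against 0 and 0.0301 CPM in 2-3 and 2-4. Hoxc13 followed with 2.81 and 2.27 CPM in 2-1 and 2-2, against 0.0359 and 0.181 CPM in 2-3 and 2-4, while primary tumour 2 had 0.151 CPM. The highest Hoxc13 levels were those of metastasis 4-1 (6.89 CPM) and primary tumour 4 (5.19 CPM).

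No HoxB gene passed the threshold. Hoxb2 and Hoxb3, genes of the hindbrain, were at 1.30 ± 0.63 and 0.32 ± 0.54 on the log2 scale, Hoxb4, known in blood stem cells, at 0.083 ± 0.594 and Hoxb5 at 0.88 ± 0.53, with adjusted p from 0.183 to 0.947. Metastasis 1-1, the library with the highest lung epithelium sum, was the highest of all 20 for each of these 4 genes, at 1.68, 3.38, 2.61 and 2.39 CPM. Metastasis 5-x, close to it in mean log2 CPM of the lung markers (8.10 against 8.15), had 0.471, 0.914, 1.11 and 0.443 CPM. Hoxb2 and Hoxb3 have 27.3% and 52.9% of their exon bases opposite the antisense gene Hoxb3os, and the strand setting of the counting is not given in the sources used here.

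Hoxb6 and Hoxb7, of the trunk, were below 0. Hoxb6 had 0, 0.157 and 0.709 CPM in metastases and 0, 0.540 and 1.01 CPM in primary tumours, a log2 fold change of -1.66 ± 0.62 with an adjusted p of 0.0869. Hoxb7 had 0.0719, 0.245 and 0.355 CPM in metastases and 0, 0.837 and 1.80 CPM in primary tumours, a log2 fold change of -1.63 ± 0.68 with an adjusted p of 0.128. Hoxb7 was above all metastases in primary tumours 1, 2, 3 and 5 and without a count in primary tumours 4 and 6, and the same 2 primary tumours, those with little muscle RNA, had no count of Hoxb8 or Hoxb9. These 2 were also low in haematopoietic markers, at a mean log2 CPM of -1.29 and -0.99, against 4.09 to 4.48 in the other primary tumours. Their lung endothelium markers were at -2.22 and -1.70, against 3.22 to 4.02 in the others. Their lung mesenchyme markers were at -2.01 and -1.09, against 1.17 to 1.65. The part of these other cells in the Hox levels was not tested. With the muscle markers as a term the difference of Hoxb7 was 0.54 (adjusted p 0.697).

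Leaving out the 3 libraries with a steep GC slope gave 5 Hox genes that rose (Hoxa4, Hoxa11, Hoxa13, Hoxc4 and Hoxc9) and 5 that fell (Hoxb6, Hoxb7, Hoxd4, Hoxd8 and Hoxd9), where 9.28% of 18555 genes rose and 7.63% fell. The falls of Hoxd8 and Hoxd9 were then -3.56 and -3.05 and that of Hoxd4 -3.81. By paralogue number, the median log2 fold change over all libraries was 0.71 for 8 tested genes numbered 1 to 4, 0.15 for 10 numbered 5 to 8 and 0.15 for 10 numbered 9 to 13. Over all libraries, of the tested genes numbered 4, Hoxa4 rose and Hoxd4 fell. Hoxc4 was at 0.98 (adjusted p 0.0537 by edgeR) and Hoxb4 at 0.083. Of those numbered 9, Hoxc9 rose and Hoxd9 fell, while Hoxa9 was at -0.20.

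Whether the Hox pattern belongs to a set was asked of the 12 metastases of sets 1, 2, 3 and 6. Across these sets no Hox gene of 26 tested passed the threshold by edgeR, where 0.321% of 19919 genes did. At an unadjusted p under 0.05 there were 9 Hox genes, and 29.5% of all genes. Hoxc8, a thoracic gene, had the smallest adjusted p (0.0573), with mean log2 CPM of 0.65, 1.07, 3.52 and 2.64 in sets 1, 2, 3 and 6. Hoxa3 had 1.05, 0.77, 2.79 and 2.56 (adjusted p 0.0898), and Hoxa13 had 1.02, 2.43, 3.42 and 3.66 (0.0956). DESeq2 called 8 of the 26 (Hoxa3, Hoxa9, Hoxa13, Hoxc4, Hoxc5, Hoxc6, Hoxc8 and Hoxd8), where it called 24.5% of all genes. Limma voom called Hoxc8 alone, where it called 2.57% of all genes.

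The size of the metastasis difference was also compared between sets 1, 2, 3 and 6. No Hox gene of 28 differed past the threshold by edgeR, where 1.64% of 18452 genes did, and 4 (14.3%) had an unadjusted p under 0.05, against 18.9% of all genes. Hoxb7 and Hoxa13 had the smallest adjusted p, 0.0610 and 0.0837. The difference in mean log2 CPM of Hoxa13 was 0.74, 2.72, 4.78 and 7.62 in sets 1, 2, 3 and 6, and that of Hoxb7 was -1.75, -2.86, -2.44 and 2.40, the last being the set whose primary tumour had no count. Limma voom called Hoxb7, where it called 362 of 18452 genes. Each set has 1 primary tumour, which gives no spread of its own.

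The Hox levels of a metastasis seldom singled out its own primary tumour. By the root mean square distance in log2 CPM over the 28 tested members, the primary tumour of its own set was the nearest for 1 of 14 metastases, and primary tumour 5, the one with the lowest Hoxd8, was the nearest for all 14. Without the 3 tested HoxD genes the own primary tumour was the nearest for 4 of 14 (metastases 1-1, 1-2, 1-3 and 2-3). Primary tumours 3, 4 and 6 were the nearest of no metastasis in either case. These counts were not set against those that chance would give, and the 28 members include genes that differed between the groups.

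Hox proteins bind DNA with cofactors of the TALE class, of which 9 were tested and 3 rose, none fell and the median log2 fold change was 0.00019. Pbx4 was low in both groups and rose by 2.35 ± 0.66 (adjusted p 0.0270), with 0.391 ± 0.203 CPM in metastases and 0.0715 ± 0.0593 CPM in primary tumours. Meis1 averaged 31.8 ± 11.2 CPM in metastases and 18.8 ± 8.1 CPM in primary tumours, a log2 fold change of 0.94 ± 0.29 with an adjusted p of 0.0430 by edgeR. The Cdx genes, activators of trunk Hox genes in the embryo, had too few counts for a test.

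Of 16 non-coding RNAs of the clusters, 6 were tested, 1 rose and 1 fell. Hoxd3os1, an antisense RNA within HoxD, fell together with Hoxd4: it averaged 0.126 ± 0.236 CPM in metastases and 1.24 ± 0.87 CPM in primary tumours, a log2 fold change of -3.85 ± 0.58 with an adjusted p of 0.00131 by edgeR. It was at 0.934 CPM in metastasis 2-3 and at most 0.165 CPM in the other metastases, against 0.265 to 2.66 CPM in primary tumours. Hoxaas3, which runs opposite to part of Hoxa3 and Hoxa7, rose by 1.57 ± 0.48 (0.0398), with 1.43 ± 0.83 CPM in metastases and 0.635 ± 0.416 CPM in primary tumours. These genes overlap members on the other strand, and the strand setting is not given, so how reads over the common bases were counted is uncertain.

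Polycomb and Trithorax proteins keep Hox clusters silent or active. Of 19 tested, 1 rose and 1 fell, with a median of -0.12. Cbx7, a subunit of Polycomb complex PRC1, rose by 1.59 ± 0.29 (adjusted p 0.00353), with 21.1 ± 8.9 CPM in metastases and 7.04 ± 5.27 CPM in primary tumours. The one that fell was Eed, of Polycomb complex PRC2 (-0.66 ± 0.20, 0.0347), named after its value was seen.

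The clusters are flanked by unrelated genes. Of 8 such neighbours tested 2 rose and none fell: Calcoco1 by 1.39 ± 0.25 (adjusted p 0.00323) and Smug1 by 1.03 ± 0.20 (0.00482), both beside HoxC. The neighbours of HoxD, Mtx2 and Lnpk, were at 0.00079 ± 0.276 and -0.40 ± 0.26 with adjusted p of 0.999 and 0.332. Smug1, Mtx2 and Lnpk were named after their values were seen.

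Other factors of limb and body position were checked beside the Hox genes: of 10 tested, 2 rose and 2 fell, with a median of -1.25. Pitx1, which specifies the hindlimb, fell by 6.51 ± 0.93 on the log2 scale (adjusted p 0.00113): it was at 1.54 CPM in metastasis 3-1 and at most 0.0553 CPM in the other metastases, against 1.74 to 5.39 CPM in 5 primary tumours and 0 in primary tumour 4. Tbx15, of limb and trunk mesenchyme, fell by 2.17 ± 0.39 (0.00302), to 24.8 ± 10.2 CPM in metastases against 106 ± 59 CPM in primary tumours. Tbx4 and Tbx5, which act in the hindlimb and forelimb and also in lung mesenchyme, rose by 3.86 ± 0.80 (0.00605) and 5.83 ± 1.23 (0.00689), with 14.3 ± 11.2 and 2.52 ± 3.40 CPM in metastases and 1.60 ± 2.27 and 0.0286 ± 0.0355 CPM in primary tumours. Lung mesenchyme markers rose for 3 of 9, with Tcf21 of smallest p (6.86 ± 1.10, 0.00186). Their part in the values of Tbx4, Tbx5 and the Hox genes was not tested.

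Markers of other cells that a tumour sample can hold were read beside the Hox genes. Lung epithelium was led by Nkx2-1 (8.96 ± 1.44 on the log2 scale, adjusted p 0.00186 by edgeR) and skeletal muscle by Tmod4 (-4.07 ± 0.54, 0.000647). Fibroblast and mesenchyme markers fell for 2 of 8 and rose for none, with a median of -0.96. Col1a2, a collagen chain, had the smallest p of them, with 1121 ± 261 CPM in metastases and 3606 ± 1101 CPM in primary tumours (-1.77 ± 0.16, 4.85e-05). Haematopoietic markers rose for 1 of 9 (S100a8, 3.91 ± 0.84, 0.00745), lung endothelium for 1 of 6 (Car4, 4.53 ± 1.09, 0.0133) and urogenital markers for the 1 tested (Upk1b, 5.87 ± 0.79, 0.000761). Of 2 epidermal markers tested neither passed the threshold (Trp63, -0.19 ± 1.00, 0.925). Lung epithelium and muscle were entered as terms above, where neither term could be cleanly separated from metastasis. The part of the other cells in the Hox differences was not tested.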

How the data were processed

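Total RNA of 20 mouse tumour tissues was depleted of ribosomal RNA and made into stranded libraries, per the labels' protocols. Per the submitters' processing notes, which name mm10 as the build, the tools were Trimmomatic 0.36, HTSeq and STAR, its version written there as 5.5.4b. What the authors deposited is 1 table of raw counts, whole numbers for each gene and library. Neither the annotation release nor the strand setting of HTSeq is given in the sources used here. Of 51826 versioned identifiers, 51633 had a symbol in GENCODE M21 on GRCm38, 47648 of them in the same version.

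Metastases were set against primary tumours in edgeR 4.0.16 (R 4.3.3), using filterByExpr with a minimum count of 10, scaling by TMM, and the quasi-likelihood test in its robust form, blocked by matched set. This tested 18452 genes with 13 residual degrees of freedom. Titles give the pairing. Over the 1000 most variable genes, metastases deviated from their group mean with their own primary tumour at a mean correlation of 0.103 (-0.250 to 0.353). Adjusted p is Benjamini-Hochberg adjusted over all genes tested, with a threshold of 0.05. CPM used totals scaled by TMM, and log2 CPM a prior count of 2. Standard errors of log2 fold changes come from the fold change and its F statistic. The sets were compared among 12 metastases, and the interaction of set and group among 16 libraries. DESeq2 1.42.0, limma 3.58.1 and other choices were alternatives. The fits were tested on simulated counts. The libraries closest to each other within a set, metastases 2-1 and 2-2, differed by a chi-square of 10.7 for each degree of freedom over 17236 genes, so no library was treated as a copy. Metastases 6-1 and 6-2 followed at 29.3, and the next closest pair was at 64.5. These values cannot tell whether 2 libraries came from 1 nodule. The p-values of low genes rest on few counts.

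The Hox members, the 14 further gene lists (132 distinct symbols, all found) and the tests were chosen with earlier results of these data known. Every member is accounted for. Of each other list the tested member of smallest p was named, and of the cofactor, limb and non-coding lists also each member past the threshold, except 1 that is not reported here.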

Additional observations from a re-analysis of the deposited data

Results flagged for a closer look

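Within the primary tumours and the metastases of sets 1 and 2, 12 of 84 pairs of a Hox gene and a group held a library whose gap to the nearest other was large for the range of its group (Dixon's criterion at the 95% level, which chance alone meets in about 1 of 20 groups). The values are log2 CPM.

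Metastasis 1-1 was the highest of set 1 for 4 genes numbered 2 to 5: Hoxa2 at 0.50, Hoxa5 at 3.89, Hoxb3 at 1.79 and Hoxb5 at 1.29. It also had the highest lung epithelium sum of all libraries (13934 CPM), whose part in these levels was not tested. Metastasis 5-x, with the next highest sum (11621 CPM), was at -1.67, 2.26, -0.031 and -0.98 for these genes in that order. In set 2, metastasis 2-4 was the highest for Hoxa9 (4.68) and Hoxa10 (4.97). It was the lowest for Hoxb5 (-3.00, from 2 counts), and metastasis 2-3 was the lowest for Hoxb7 (-2.88, from 2 counts).

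Primary tumour 4 was the highest primary tumour for Hoxa10 (5.95) and the lowest for Hoxb3 (-3.08), Hoxb5 (-3.96) and Hoxb6 (-3.96). These low values rest on 1 count of Hoxb3 and no count of Hoxb5 or Hoxb6. A gene without a count stands at -3.96, a floor set by the prior count. It is one of the libraries with a steep GC slope (-2.43), and the part of GC content in its Hox levels was not tested.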

How the results depend on the processing

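Hoxd4 and Hoxd8 were the steadiest: over 16 alternatives Hoxd4 fell past the threshold in 16 (-4.29 to -3.43) and Hoxd8 in 15 (-3.56 to -2.56), the exception being the lung markers as a term. Hoxd9, Hoxa4 and Hoxc9 kept their direction in all 16 and passed in 10, 10 and 8.

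The count of Hox genes that rose, 2, became 5 by DESeq2, 4 by limma voom, 0 with no filter, 0 with the metastases of a set summed, 0 with 1 metastasis per set, 4 with the lung markers and 1 with the muscle markers as a term. The share of all genes that rose moved too: it was 12.5%, 8.21%, 2.84%, 1.69%, 1.78%, 3.02% and 15.6% in these fits, in that order. The count that fell, 3, became 1 with the lung markers, where 2.14% of all genes fell. Without 1 set at a time 0 to 4 rose and 2 to 5 fell (none rose without set 1, 2 or 6, and 1 without set 3, while 4 rose and 5 fell without set 4). Of all genes, 3.09% to 8.93% rose and 2.22% to 7.65% fell in those fits. Without primary tumour 4 and metastases 4-1 and 3-2, a choice made after seeing the data, 5 rose and 5 fell. Of all genes, 9.28% rose and 7.63% fell in that fit. Without the replicate block 3 rose and 4 fell, where 6.62% of all genes rose and 6.84% fell. Between sets, the count of 0 became 8 by DESeq2, 1 by limma voom and 5 with the lung markers, and 0 to 3 without 1 metastasis at a time (3 without 2-4 or 3-1). Of all genes, 24.5%, 2.57% and 12.4% were called in the first 3 of these fits, 6.02% without 2-4 and 26.6% without 3-1. For the metastasis difference between sets, 0 became 1 by limma voom, which called 362 of 18452 genes.

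Of the 28 tested, 14 members changed sign somewhere, and no changed value passed the threshold. The cause was not tested. With the lung markers as a term Hoxa10 was at 0.45, Hoxa9 0.79, Hoxb2 -0.82, Hoxb3 -1.49, Hoxb4 -1.90, Hoxb5 -0.84, Hoxc5 0.53, Hoxc12 -0.999 and Hoxc13 -2.42. With the muscle markers Hoxb7 was at 0.54, Hoxc6 -0.0021, Hoxc11 -0.17 and Hoxc13 -0.38. With 1 metastasis per set Hoxc6 was at -0.061, Hoxc8 -0.094, Hoxc10 -0.087 and Hoxc11 -0.085. With no filter Hoxc10 was at -0.0087, and without the replicate block Hoxc11 was at -0.025 and Hoxc13 at -0.085. Without the 3 libraries of steep GC slope Hoxb3 was at -0.041, Hoxb4 -0.14 and Hoxc5 0.075. Without 1 set at a time the ranges were -0.49 to 0.098 for Hoxa9, -0.017 to 0.69 for Hoxb3, -0.27 to 0.60 for Hoxb4, -0.65 to 0.065 for Hoxc5, -0.086 to 0.22 for Hoxc6, -0.24 to 0.54 for Hoxc8, -0.12 to 0.073 for Hoxc10, -0.23 to 0.24 for Hoxc11 and -0.16 to 1.03 for Hoxc13. The median of paralogues 1 to 4 moved to -0.17 with the lung markers.

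With no filter, Hoxd3 was the only one of the 10 genes below it to pass the threshold. Hoxb9 (-2.51, adjusted p 0.0691 by edgeR) and Hoxd10 (-1.83, 0.130) did not, nor did the other 7.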

Other observations

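Metastasis 2-3, the metastasis with the highest Hoxd8, also had the highest level of Haglr, a non-coding RNA gene beside Hoxd1, at 1.83 CPM, against at most 0.0904 CPM in the other metastases and at most 0.151 CPM in primary tumours. Haglr was named after its values were seen and was not tested.

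Hotair, a non-coding RNA of the HoxC cluster, was at 0.602 to 6.00 CPM in metastases and 0.435 to 15.7 CPM in primary tumours (log2 fold change -0.31 ± 0.68, adjusted p 0.805 by edgeR). The 3 highest levels were those of primary tumours 4 (15.7 CPM) and 6 (6.97 CPM) and metastasis 4-1 (6.00 CPM). Hotair too was named after its values were seen.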
